A study of Homo sapiens with 4 samples.

Results

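The genes described here are 9 genes through which TGFβ halts the cell cycle, CDKN1A, CDKN1B, CDKN1C, CDKN2A, CDKN2B, MYC, CDC25A, E2F4 and RBL1. They were chosen by name, out of 20033 protein-coding genes of GENCODE release 44, and every peak that overlapped a gene's span widened by 10 kb on each side was taken. This gave 36 of the 104156 peaks in the 4 deposited lists. Binding was measured by anti-GFP ChIP-seq in the human breast cancer line MDA-MB-231 with a stably integrated BAC transgene, which encodes Smad2 or Smad3 fused to the GFP-containing LAP tag. The cells are Geneticin-selected populations sorted for GFP, and they keep their own untagged Smads. Each line was left untreated or received 10 ng/mL TGFβ-1 for 2 h, which makes 4 conditions. Each condition has a single library, so differences between them carry no error estimate and were not tested.

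The list of the library labelled LAP-Smad2 untreated held 11266 peaks and that of the library labelled LAP-Smad3 untreated held 3511. After TGFβ-1, the lists held 26828 peaks for LAP-Smad2 and 62551 for LAP-Smad3. The labels of the untreated pair and the names inside the deposited lists give opposite Smads, so each untreated library is named as labelled and no change from untreated to treated cells is read. The depth of the libraries is unknown, and a longer list gives more genes a peak. Fold values are ranked only within a list, because the lists do not share a scale. Peaks say where tagged Smad was recovered and hold no measure of expression, so that neither the cell line nor the response of the genes could be checked against RNA.

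In normal epithelium, TGFβ arrests cells in G1 by lowering MYC and raising inhibitors of cyclin-dependent kinases (CDKs). Smad3 with E2F4 or E2F5 and the pocket protein p107, encoded by RBL1, represses MYC, while Smads acting with FOXO factors and Sp1 activate CDKN2B and CDKN1A. CDC25A, a phosphatase that activates CDKs, is repressed in the same program. MDA-MB-231 is a line in which this growth arrest is known to be lost, and it is catalogued with a homozygous deletion of CDKN2A.

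The sequences of hg38 below show the sites without repeated words at these genes that appeared in both TGFβ-1 lists, and 1 further CDKN1A site with the highest −log10 q of the LAP-Smad2 peaks there. Each is 200 bases of the plus strand. Capitals mark the Smad binding element CAGAC and the GC-rich Smad words GGCGC and GGCCG, on either strand. The CDKN1A windows, chr6:36679479-36679678 and chr6:36679881-36680080, lie in an intron. The RBL1 window, chr20:37095992-37096191, begins at the start of the gene and runs upstream.
CDKN1A, site of both lists: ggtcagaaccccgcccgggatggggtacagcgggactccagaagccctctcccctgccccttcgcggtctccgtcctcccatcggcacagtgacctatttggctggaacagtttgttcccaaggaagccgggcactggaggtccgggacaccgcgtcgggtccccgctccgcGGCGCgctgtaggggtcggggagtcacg
CDKN1A, LAP-Smad2 site: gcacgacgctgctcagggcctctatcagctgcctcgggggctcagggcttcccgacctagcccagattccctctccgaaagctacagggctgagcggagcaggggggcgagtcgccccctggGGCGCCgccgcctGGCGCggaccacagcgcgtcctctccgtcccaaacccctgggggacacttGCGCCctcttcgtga
RBL1, start site: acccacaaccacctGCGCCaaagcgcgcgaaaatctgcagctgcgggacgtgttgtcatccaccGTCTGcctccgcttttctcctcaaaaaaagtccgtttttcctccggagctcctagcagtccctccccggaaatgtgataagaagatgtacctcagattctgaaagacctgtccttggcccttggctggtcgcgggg
The CDKN1A site of both lists holds 1 GGCGC and no CAGAC, and the LAP-Smad2 site holds 4 GGCGC, where a palindromic pair counts as 2. The RBL1 window holds 1 CAGAC and 1 GGCGC, the latter inside the E2F word TTGGCGC on the minus strand. It is centred on an overlap of only 6 bp between the intervals, and the LAP-Smad2 summit lies outside it. The windows centred on the LAP-Smad2 and LAP-Smad3 summits at the RBL1 start held no CAGAC and no TTGGCGC. To see which sites lie in sequence with copies elsewhere, each 200 bp window around a summit was cut into words of 30 bases, and the share of words that occur more than once in hg38 was taken. No word was repeated around the summits of these CDKN1A and RBL1 peaks.

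After TGFβ-1, 7 of the 9 genes had a LAP-Smad3 peak within 10 kb, where 74.3% of all protein-coding genes had one. Only 4 of 9 had a LAP-Smad2 peak, where 55.9% of all genes did. Each of these counts is within about 1 gene of the background share. The 9 include CDKN2A, catalogued as deleted in this line, and its neighbour CDKN2B. In the untreated lists, the library labelled LAP-Smad2 had peaks at CDKN2A and RBL1, 2 of 9, against a background of 22.0%. The library labelled LAP-Smad3 had peaks at CDKN1A and CDC25A, also 2 of 9, against 9.14%. The windows of the 9 genes had a median length of 30878 bp, against 47471 bp for all genes, with 4 longer and 5 shorter than that median.

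CDC25A, CDKN1A, E2F4 and RBL1 had peaks of both TGFβ-1 lists. A peak of each list was found at 47.0% of all genes. CDKN1B, CDKN1C and MYC had a LAP-Smad3 peak without a LAP-Smad2 peak, a pattern found at 27.3% of all genes. None of the 9 had a LAP-Smad2 peak alone, a pattern of 8.88% of all genes. CDKN2B was the 1 gene without a peak in any list, as were 15.6% of all genes.

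**Figure D1:**
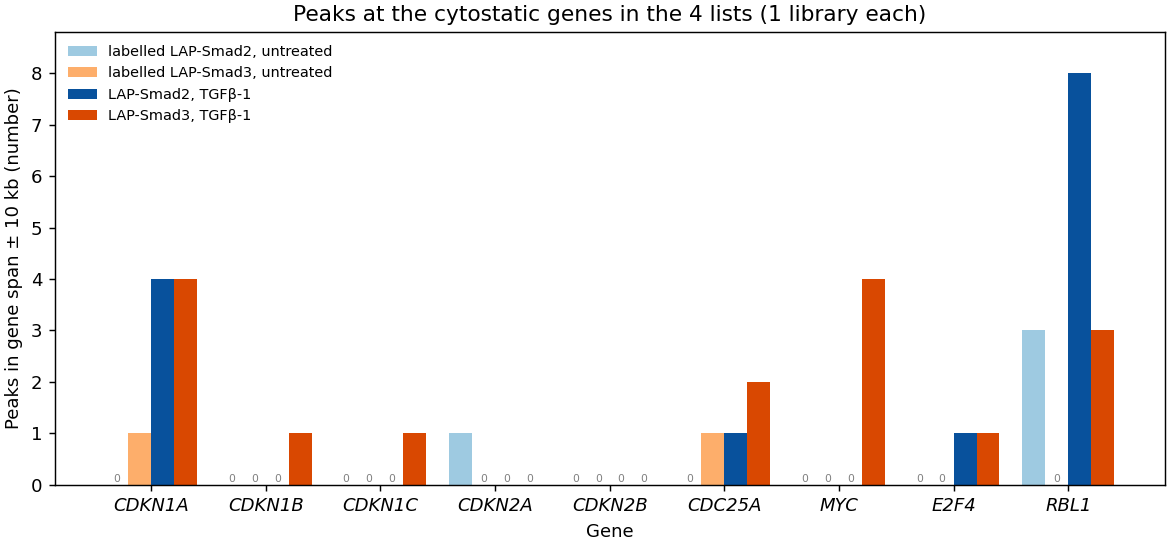
Number of peaks (vertical axis) whose interval overlaps each gene's span widened by 10 kb (horizontal axis), with 1 bar for each of the 4 lists of 1 library each and a grey 0 where there was none. RBL1 had 8 LAP-Smad2 peaks after TGFβ-1 and MYC had 4 LAP-Smad3 and 0 LAP-Smad2 peaks.

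CDKN1A (ENSG00000124762.14, chr6:36676460-36687337, plus strand) encodes p21, a CDK inhibitor of the CIP/KIP family and the classical target of p53 as well as of TGFβ. Its window held 0 peaks of the library labelled LAP-Smad2 untreated and 1 of the library labelled LAP-Smad3 untreated. After TGFβ-1, it held 4 peaks of each Smad. As many LAP-Smad2 peaks or more were found at 6.47% of all genes, and as many LAP-Smad3 peaks or more at 22.4%. All 9 peaks had their summits inside the gene, and none of the words in their windows occurred elsewhere in hg38.

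At CDKN1A, 3 of the 4 LAP-Smad2 peaks after TGFβ-1 followed an inner start site, chr6:36678771, closely. Their summits lay 324, 829, 1209 and 5578 bp downstream of it, the first 3 in an intron and the last in a coding exon. Their folds were 3.50, 2.83, 3.63 and 3.26. These folds were low for the list, higher than those of 23.5%, 3.42%, 31.1% and 13.3% of its peaks, while their −log10 q values of 8.50, 5.10, 10.4 and 6.80 exceeded 91.0%, 56.7%, 94.8% and 81.8% of the list. Each of the 4 peaks thus ranked higher by −log10 q than by fold within the same list.

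The LAP-Smad3 peaks at CDKN1A were spread along the gene body. Their summits lay 818, 3892, 6938 and 8279 bp downstream of the same start site, with folds of 2.90, 4.29, 4.81 and 4.56. The first and the third were in introns, and the second and the fourth in untranslated parts of exons. The fold of the first exceeded that of only 0.897% of the LAP-Smad3 list. It is this weak peak, chr6:36679426-36679625, that overlapped a LAP-Smad2 peak, chr6:36679532-36679750, by 94 bp, with summits 11 bp apart. The peak of the library labelled LAP-Smad3 untreated lay 50 bp downstream of that start site, with a fold of 2.96, and overlapped the first of the LAP-Smad2 peaks after TGFβ-1. The lncRNA DINOL starts nearby, and for all 9 peaks a start site of CDKN1A was nearer than that of DINOL.

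CDKN1B (ENSG00000111276.12, chr12:12685498-12722369, plus strand) encodes p27 and CDKN1C (ENSG00000129757.15, chr11:2883213-2885775, minus strand) encodes p57, the other CIP/KIP inhibitors. Both had 0 peaks in the untreated lists and 0 LAP-Smad2 peaks after TGFβ-1, and each had 1 LAP-Smad3 peak, outside the gene. The peak in the CDKN1B window had its summit 13176 bp downstream of the nearest CDKN1B start site and 5011 bp downstream of that of APOLD1, inside which it lies. All of its words were repeated in hg38, with a median of 4950 copies. Its fold was 5.25. The peak in the CDKN1C window lay 3241 bp downstream of the nearest start site, beyond the 3′ end, with a fold of 4.51 and no repeated words. Its window held 2 matches of the E-box CACGTG, each palindrome counted once. The nearest LAP-Smad2 summits after TGFβ-1 were 67177 bp from a CDKN1B and 55195 bp from a CDKN1C start site.

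CDKN2A (ENSG00000147889.18, chr9:21967752-21995301) and CDKN2B (ENSG00000147883.12, chr9:22002903-22009305) lie next to each other on the minus strand. CDKN2A encodes the INK4 inhibitor p16 and the p53 regulator ARF, and CDKN2B encodes p15, the INK4 inhibitor classically induced by TGFβ. Their windows share 12399 bp. After TGFβ-1, neither gene had a peak of either Smad. The nearest LAP-Smad3 summits were 90213 bp from a CDKN2A and 76209 bp from a CDKN2B start site, and the nearest LAP-Smad2 summits were 359383 and 345379 bp away. Of all genes, 96.9% and 95.5% had a nearer LAP-Smad3 summit, and 97.4% and 97.2% had a nearer LAP-Smad2 summit.

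After TGFβ-1, the 2 genes lay in a long stretch without peaks. In the LAP-Smad3 list after TGFβ-1, no peak was called over 445 kb, from chr9:21640454 to chr9:22085358, where the median gap between neighbouring peaks was 17548 bp. Longer gaps made up 0.469% of those in the list, 293 in all, of which 13 were on chromosome 9. In the LAP-Smad2 list after TGFβ-1, the gap was 1812123 bp, and 0.194% of gaps were longer. Few gaps in either list were longer, but the stretch was not the longest. These shares count gaps, and a long gap covers more bases than a short one. They are therefore not the share of genes or of the genome that lies in such a gap. The share of the genome is larger, and neither share was computed. The untreated libraries labelled LAP-Smad2 and LAP-Smad3 had gaps of 1040 and 29000 kb, with 4.15% and 0.143% of gaps longer. Over the peaks of all 4 lists, the gap was 126 kb and 5.85% were longer. The part that the catalogued deletion of CDKN2A has in it was not tested, and peak lists cannot tell lost DNA from unbound DNA.

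The sole peak in either window came from the library labelled LAP-Smad2 untreated. It lay from chr9:21959204 to chr9:21959602, beyond the 3′ end of CDKN2A, with its summit 11127 bp from the nearest CDKN2A start site and 7589 bp from that of the lncRNA CDKN2A-DT. Its fold of 8.67 exceeded that of 84.6% of its list. Of the words in its window, 60.2% were repeated in hg38, with a median of 5 copies.

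MYC (ENSG00000136997.22, chr8:127735434-127742951, plus strand) encodes the growth-promoting transcription factor whose loss opens the cytostatic program. Its window held 4 LAP-Smad3 peaks after TGFβ-1 and 0 peaks of each of the other 3 lists. As many LAP-Smad3 peaks or more were found at 22.4% of all genes. Their summits lay 841, 2019, 3386 and 5109 bp downstream of the outermost of its 14 annotated start sites, all within the gene. The first was 44 bp from an inner start site, and 3.91% of all genes had a LAP-Smad3 summit nearer to one of theirs.

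The folds of the MYC peaks were 6.08, 3.92, 5.21 and 3.25, higher than those of 84.5%, 17.5%, 60.9% and 4.27% of the LAP-Smad3 list. The MYC peaks thus ran from the upper to the lowest part of the list. The first, the third and the fourth summits fell in coding exons of at least 1 transcript, and the second in an intron. None of the words in the 4 windows was repeated. The nearest LAP-Smad2 summit after TGFβ-1 was 22368 bp from a MYC start site, and the nearest untreated summits were 105168 and 110777 bp away. The antisense lncRNA CASC11 has a start site 167 bp from the third summit, nearer than any of MYC. The fourth peak had a −log10 q of 1.77 and was the 1 member peak lost at a q-value below 0.01.

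CDC25A (ENSG00000164045.12, chr3:48157146-48188417, minus strand), the CDK-activating phosphatase, had 0 peaks of the library labelled LAP-Smad2 untreated and 1 of the library labelled LAP-Smad3 untreated. After TGFβ-1, it had 1 LAP-Smad2 peak and 2 of LAP-Smad3. The untreated peak, with a fold of 4.01 and no repeated words, had its summit 147 bp downstream of a start site, in the untranslated part of an exon. No peak of the lists after TGFβ-1 overlapped it, which is not read as a change. Upstream of the gene, the LAP-Smad2 peak and a LAP-Smad3 peak after TGFβ-1 coincided. Their summits lay 7465 and 7460 bp from the start site, 5 bp apart. They overlapped by 215 bp, 99.5% of the LAP-Smad2 interval, the closest match of the lists at any of the 9 genes.

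This shared CDC25A site had folds of 4.23 for LAP-Smad2 and 5.20 for LAP-Smad3, above those of 63.3% and 60.8% of their lists. Of the words around either summit, 87.7% were repeated in hg38, with a median of 308 copies. The microRNA gene MIR4443 starts 682 bp from the LAP-Smad2 summit, nearer than CDC25A. The other LAP-Smad3 peak lay in an intron, 4946 bp from a start site, and 77.2% of its words were repeated. All 3 peaks after TGFβ-1 at CDC25A were therefore in repeated sequence, in contrast to those at CDKN1A and MYC.

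**Figure D2:**
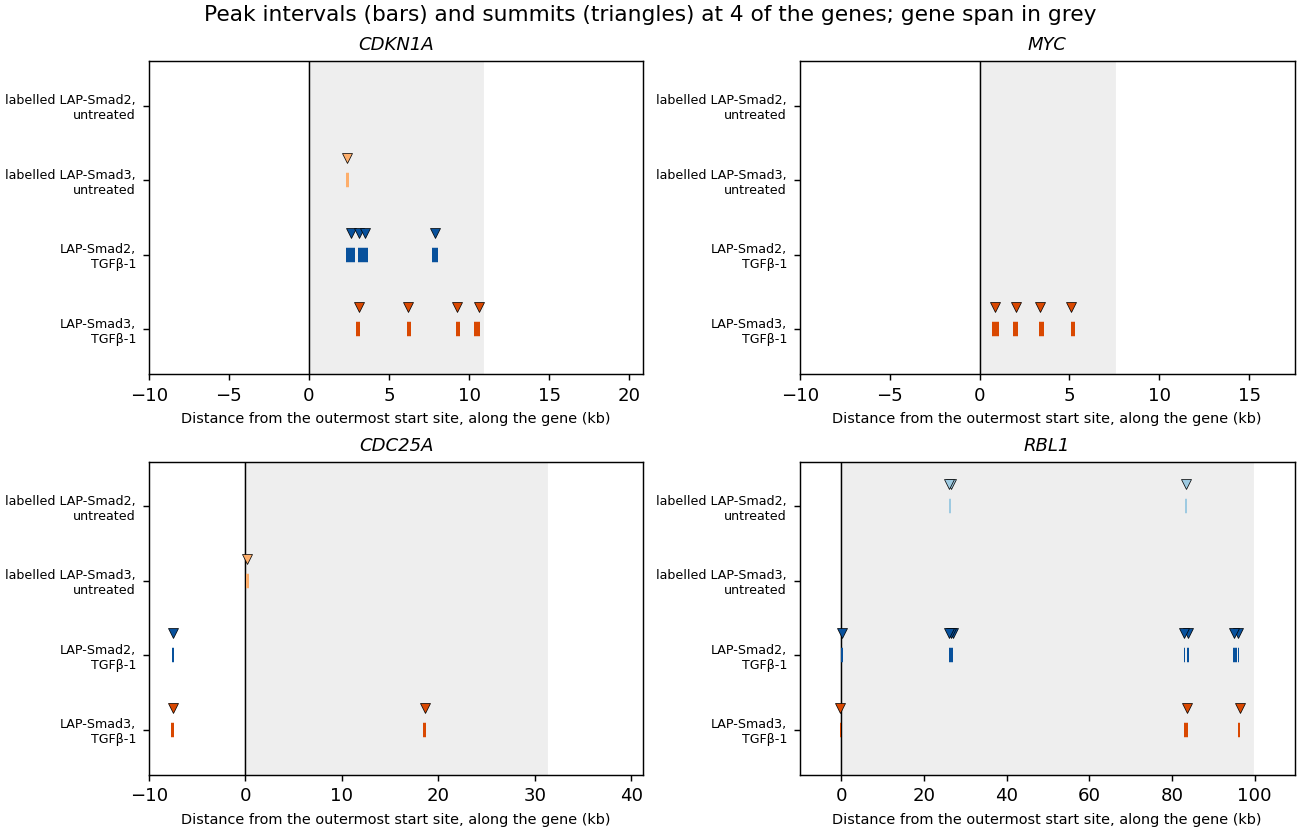
Peak intervals (bars) and summits (triangles) of the 4 lists at CDKN1A, MYC, CDC25A and RBL1, by distance in kb from the outermost start site along the direction of transcription, with the gene span in grey. The 4 LAP-Smad3 peaks of MYC stand alone within the gene, and both Smads meet 7465 and 7460 bp upstream of CDC25A.

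E2F4 (ENSG00000205250.9, chr16:67192155-67198918, plus strand) encodes the repressor E2F that joins Smads at MYC. It had no untreated peak, 1 LAP-Smad2 and 1 LAP-Smad3 peak after TGFβ-1, both beyond its 3′ end and apart from each other. The LAP-Smad2 summit lay 3474 bp downstream of the nearest E2F4 start site and exactly at a start site of the neighbouring gene ELMO3, with a fold of 3.48. The LAP-Smad3 summit lay 12186 bp from E2F4, next to the unclassified transcript ENSG00000280163, with a fold of 4.97. Neither peak held repeated words. For both, another gene started nearer than E2F4.

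RBL1 (ENSG00000080839.12, chr20:36996349-37095997, minus strand) encodes p107, a pocket protein that binds E2F4. It had 14 of the 36 peaks, in the longest of the 9 windows, 119649 bp. There were 3 peaks of the library labelled LAP-Smad2 untreated and 0 of the library labelled LAP-Smad3 untreated. After TGFβ-1, there were 8 of LAP-Smad2 and 3 of LAP-Smad3. At least 8 LAP-Smad2 peaks were found at 0.794% of all genes, and at least 3 LAP-Smad3 peaks at 33.0%.

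At the start of RBL1, both Smads had a peak after TGFβ-1 in sequence without repeated words. The LAP-Smad2 summit lay 169 bp downstream of a start site, in a coding exon, with a fold of 4.80 that exceeded 86.3% of its list, the highest rank of the 14 LAP-Smad2 peaks at the 9 genes. The LAP-Smad3 summit lay 188 bp upstream, with a fold of 4.61 that exceeded 40.8% of its list. The intervals, chr20:37095663-37096094 and chr20:37096089-37096304, touched by only 6 bp, and the summits were 365 bp apart, on opposite sides of the start site. The lncRNA ENSG00000269846 starts on the other strand 35 bp from the LAP-Smad2 summit.

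The remaining RBL1 peaks lay in introns, in 3 clusters. Of the 14 peaks at RBL1, 11 had over 50% of their words repeated. The strongest, of the library labelled LAP-Smad2 untreated, had a fold of 12.5, above 96.9% of its list, with all words repeated and a median of 199 copies. It lay from chr20:37012377 to chr20:37012753, 55479 bp from the nearest start site, and a LAP-Smad3 peak after TGFβ-1 covered it. LAP-Smad2 peaks after TGFβ-1 stood on either side of it, with summits 55988 and 55064 bp from the start site. A second cluster, 1489 and 1798 bp upstream of an inner start site, held 2 untreated peaks, each overlapped by a LAP-Smad2 peak after TGFβ-1. With peaks in repeated sequence left out, RBL1 kept 2 peaks of LAP-Smad2 and 1 of LAP-Smad3 after TGFβ-1 and 0 untreated ones.

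Within 3 kb of a start site, the distance that the study used for promoters, LAP-Smad3 summits after TGFβ-1 were found at CDKN1A, MYC and RBL1, 3 of 9 genes, where 39.6% of all genes had one. LAP-Smad2 summits were found at CDKN1A and RBL1, 2 of 9, where 35.1% of all genes had one. In the untreated lists, 1 gene, RBL1, had such a summit of the library labelled LAP-Smad2, against 5.53% of all genes. CDKN1A and CDC25A, 2 genes, had one of the library labelled LAP-Smad3, against 4.86%. Over the member peaks themselves, the summit lay a median of 2650 bp from a start site of its gene for LAP-Smad2 and 4420 bp for LAP-Smad3 after TGFβ-1. The median distance from a member's start sites to the nearest summit was 4950 bp for LAP-Smad3 and 22400 bp for LAP-Smad2 after TGFβ-1. Over all genes, these medians were 5570 and 12600 bp.

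**Figure D3:**
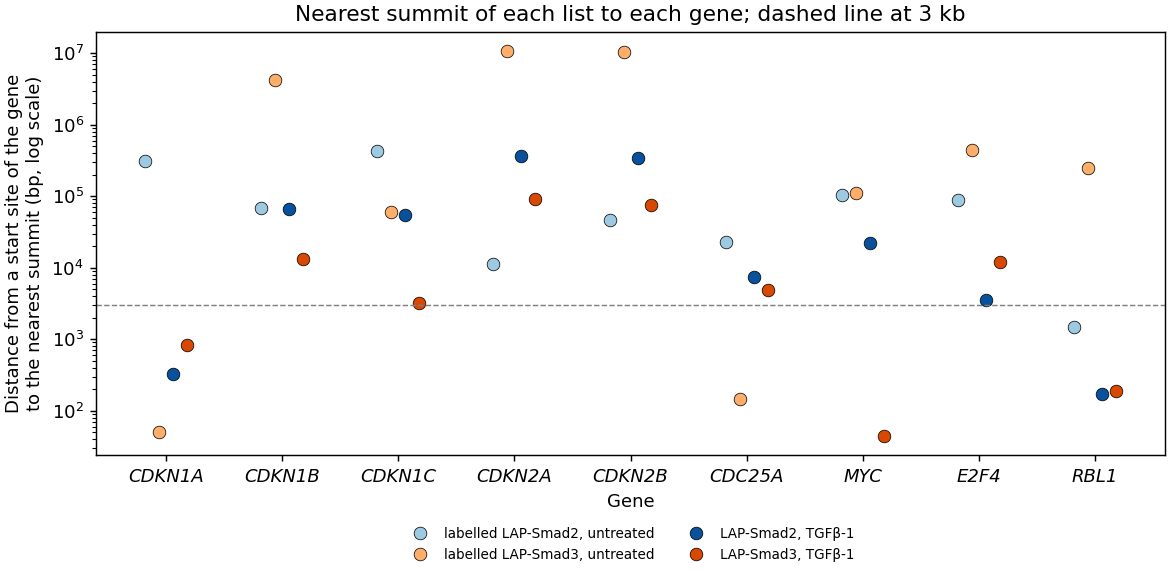
Distance in bp, on a log scale, from any start site of each gene to the nearest summit of each of the 4 lists, whether inside the window or not, with a dashed line at 3 kb. After TGFβ-1, MYC had a LAP-Smad3 summit at 44 bp and its nearest LAP-Smad2 summit at 22368 bp, while CDKN2A and CDKN2B had none of either Smad below 76209 bp.

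Most member peaks after TGFβ-1 had a fold below the median of their list. Over the 14 LAP-Smad2 peaks after TGFβ-1, the median fold was 3.51, with a range from 2.83 to 4.80, and 2 of 14 were above the median of the list. Over the 16 LAP-Smad3 peaks, the median fold was 4.60, with a range from 2.90 to 6.08, and 4 of 16 were above the median of the list. The median rank by fold was 23.9% of the LAP-Smad2 and 40.2% of the LAP-Smad3 list. Ranks by −log10 q differed from these in both directions. For LAP-Smad2, the third CDKN1A peak ranked at 31.1% by fold and 94.8% by −log10 q, and the CDC25A peak at 63.3% and 45.0%. For LAP-Smad3, the peak at the RBL1 start ranked at 40.8% and 76.3%, and the CDKN1C peak at 37.7% and 27.5%. A low rank by fold is therefore not read as a weak site. Among the 3511 peaks of each list with the highest −log10 q, the number of peaks in the shortest list, there were 3 LAP-Smad2 peaks at the 9 genes and 0 LAP-Smad3 peaks. These top peaks are 13.1% and 5.61% of their lists.

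**Figure D4:**
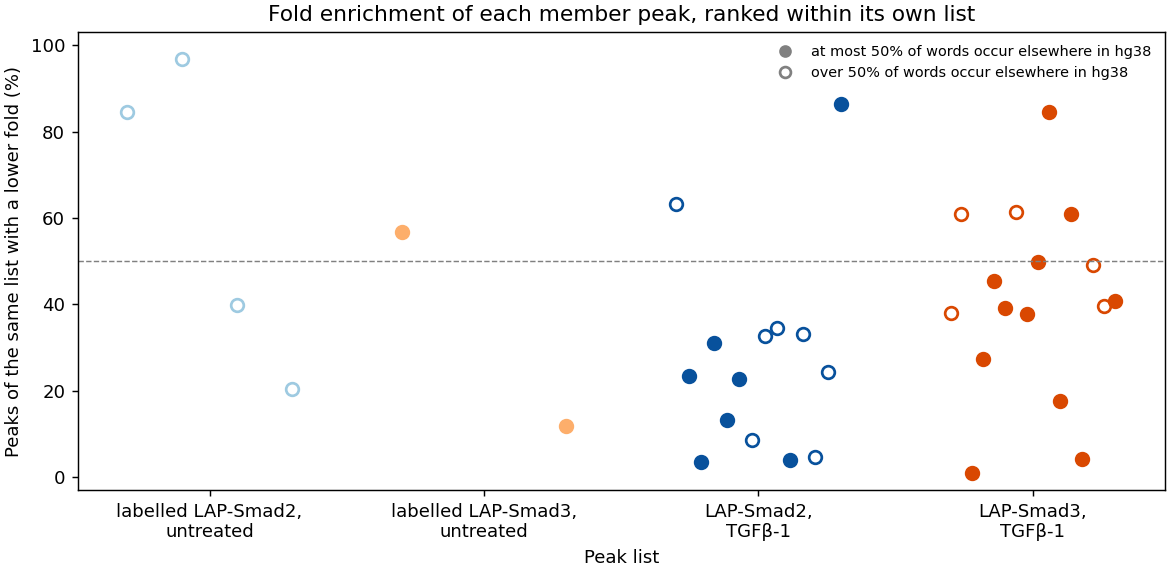
Rank of the fold enrichment of each member peak within its own list (vertical axis, percent of the list's peaks with a lower fold) for the 4 lists (horizontal axis), with a dashed line at 50%; open circles are peaks with over 50% of words repeated in hg38. After TGFβ-1, 2 of 14 peaks of LAP-Smad2 and 4 of 16 of LAP-Smad3 lie above the line.

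An overlap of at least 1 bp counted as a site of both Smads. At these genes, 6 of 14 LAP-Smad2 peaks after TGFβ-1, or 42.9%, met a LAP-Smad3 peak, and 5 of 16 LAP-Smad3 peaks, or 31.2%, met a LAP-Smad2 peak. Over the whole lists, the shares were 24.5% and 10.6%. The shared sites were at CDKN1A, CDC25A and RBL1, 3 of 9 genes, where 16.8% of all genes had such a site. RBL1 contributed 4 of the 6 pairs, 3 of them in introns, where the LAP-Smad3 peak had over 50% of its words repeated. The LAP-Smad2 peak of one of these pairs, chr20:37012819-37013021, had 46.2% repeated. Without peaks in repeated sequence, 2 of 7 peaks of LAP-Smad2 and 2 of 11 of LAP-Smad3 were shared, those of CDKN1A and of the RBL1 start, where 8.40% and 4.91% of the whole lists were shared under the same filter. Only the CDC25A site had a mutual overlap of at least 50%.

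Of the 36 peaks at the 9 genes, 16 had over 50% of their words repeated and 19 had no repeated word. After TGFβ-1, the repeated ones were 7 of 14 peaks for LAP-Smad2 and 5 of 16 for LAP-Smad3, where the whole lists had 49.5% and 62.5% of such peaks. In the library labelled LAP-Smad2 untreated, all 4 member peaks were repeated, as were 84.0% of its list. Neither of the 2 member peaks labelled LAP-Smad3 untreated had a repeated word, where 54.5% of that list had over 50% repeated. For 15 of the 36 peaks, a start site of another gene was nearer than that of the member.

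The 200 bp windows were read for 10 short words on either strand, and matches are descriptions of letters, not sites. CAGAC was in 7 of 14 LAP-Smad2 windows, all at E2F4 and RBL1, where 35.3% of the list had it, and in 4 of 16 LAP-Smad3 windows, where 34.4% had it. GGCGC was in 9 of 14 and 8 of 16 windows, beside 57.7% and 43.4% of the lists, and GGCCG, which can overlap it, in 11 of 14 and 9 of 16, beside 57.6% and 35.8%. The Sp1 word GGGCGG was in 9 of 14 LAP-Smad2 windows, at CDKN1A, E2F4 and RBL1, beside 35.5%. It was in 6 of 16 LAP-Smad3 windows, at CDKN1A, MYC and RBL1, beside 18.6%. RBL1 alone gave 8 of the 14 LAP-Smad2 windows, and 2 of these remained without peaks in repeated sequence. The LAP-Smad2 shares of all words thus rest largely on 1 gene. The E-box CANNTG, which includes CACGTG, was in 7 of 14 and 7 of 16, beside 51.9% and 55.9%, and CACGTG alone was in 0 of 14 and 2 of 16, at CDKN1A and CDKN1C, beside 3.18% and 3.17%. The AP-1 word TGANTCA was in 1 of 14 and 0 of 16, beside 1.37% and 2.70%. The E2F words TTCCCGC and TTGGCGC and the forkhead word GTAAACA were in none of these windows centred on summits. In the LAP-Smad2 list, 4.88%, 1.44% and 1.42% of windows had them, and in the LAP-Smad3 list 1.72%, 0.540% and 2.52%.

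Other genes of the G1/S transition were read from a list of 43, with cyclins, CDKs and other inhibitors, pocket and E2F proteins, the DREAM complex, MYC partners and Smad cofactors. Their windows had a median length of 55583 bp, against 47471 bp for all genes, and a longer window can catch more peaks. After TGFβ-1, 24 of 43, or 55.8%, had a LAP-Smad2 peak and 29 of 43, or 67.4%, a LAP-Smad3 peak, beside the 55.9% and 74.3% of all genes. In the untreated lists, 5 of 43, or 11.6%, had a peak labelled LAP-Smad2 and 4 of 43, or 9.30%, a peak labelled LAP-Smad3, beside 22.0% and 9.14% of all genes. After TGFβ-1, summits within 3 kb of a start site were found at 17 of 43, or 39.5%, for LAP-Smad2 and at 18 of 43, or 41.9%, for LAP-Smad3, beside 35.1% and 39.6%. No peak of any list was found at 7 of 43, or 16.3%, beside 15.6%.

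The pattern of MYC, a LAP-Smad3 peak without a LAP-Smad2 peak after TGFβ-1, was found at 12 of 43, or 27.9%, beside 27.3% of all genes. The reverse, which none of the 9 cytostatic genes had, was found at 7 of 43, or 16.3%, beside 8.88%. Overlapping peaks of both lists were found at 4 of 43 genes, or 9.30%, namely CCND3, E2F2, RB1 and SKP2, beside 16.8% of all genes and 3 of the 9 cytostatic genes. CCND3, which encodes cyclin D3, was also the 1 gene of the 43 with the same presence over the 4 lists as CDKN1A, a pattern of 4.14% of all genes.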

How the data were processed

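ChIP-seq against GFP was performed in MDA-MB-231 cells with LAP-tagged Smad2 or Smad3, with 1 library in each of 4 conditions. Per the labels and the study's methods, alignment to hg38 used Bowtie2, and MACS2 called peaks on reads lengthened to 200 bp, with q below 0.05. The authors deposited a separate list for each library. The lists hold the fold, a ratio over the local background that the authors' peak caller computed, and, also as deposited by the authors, each peak's p-value and q-value on a −log10 scale. The deposited score is that −log10 q-value on another scale and was not used further. The control library and the MACS2 version are not given in the sources used here.

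Peaks overlapping each gene span of GENCODE release 44 widened by 10 kb by at least 1 bp were taken, and distances run from the summit to the nearest annotated start site of the gene, positive or downstream along transcription. Words of 30 bases were counted on both strands of the autosomes, X and Y of hg38. Python 3.11.15, numpy 2.4.6 and pandas 2.3.3 were used, and 6 of 6 checks passed on simulated data. The 9 genes and the G1/S list were chosen with earlier results of these data known. Named are the 9 genes, the G1/S genes with overlapping peaks of both TGFβ-1 lists or with the presence of CDKN1A, and the nearest other gene of a member peak. Since each condition has a single library, nothing was tested, and counts describe these lists only. The sequences of some sites are not reported here.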

Additional observations from a re-analysis of the deposited data

How the results depend on the processing

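With 1 library per condition, no replicate could be left out. No paired analysis was possible because each group has 1 sample. The planned removal of soft-masked repeats was not run, since the reference is in capitals throughout; leaving out peaks with over 50% repeated words was chosen after seeing the data. Of 90 alternatives for 20 values, 59 stayed within 1.5 times, all of those for the distance among them. In the order library labelled LAP-Smad2 untreated, library labelled LAP-Smad3 untreated, LAP-Smad2 and LAP-Smad3 after TGFβ-1, a span widened by 50 kb gave 8, 5, 30 and 54 peaks at the 9 genes. It gave 4 genes with a peak in the first list, and 14 and 7 G1/S genes in the first and second. The span alone left 1, 2, 2 and 4 genes with a peak, and 1 G1/S gene in the first list. With every list at 3511 peaks, 2, 2, 3 and 0 peaks were left, at 2, 2, 2 and 0 genes, and 3, 4, 3 and 1 G1/S genes. Without repeated sequence, 0, 2, 7 and 11 peaks were left, at 0, 2, 3 and 5 genes. Start sites had a summit within 1 kb at 0 genes in the first list, and within 10 kb at 4 and 5 genes for LAP-Smad2 and LAP-Smad3 after TGFβ-1. Shared peaks were 1 in each TGFβ-1 list with a mutual overlap of at least 50%, 2 in each with summits within 100 bp, and 2 in each without repeated sequence. The depth, which is unknown, limits every count, and a gene without a peak is not shown to be unbound.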
